A study of Mus musculus with 6 samples.

Results

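10 genes of lipid handling and redox chemistry were followed in D2.OR, a mouse mammary carcinoma line used to model tumour cells that lie dormant after spreading. The 10 were chosen by name, as the rows of the deposited table that carry their Ensembl identifiers, out of 53647 features. All 10 had a row, all 10 passed the filter on low values (a mean of at least 10 over the libraries), and 8127 features were tested in all. Of these, 5 handle lipids (Abca1, Slc44a1, Decr1, Hsdl2 and Amacr) and 5 are redox genes (Pon2, Pon3, Txn1, Ptgr1 and Nadk2). The study compared cells with a non-targeting lentiviral hairpin (Scram, n = 3) and cells with a hairpin against Slx4ip (shSLX4IP, n = 3). Both groups were selected with puromycin and kept for 7 days in 3D culture on a basement membrane extract. Each group is a transduced population with 1 hairpin, so an effect of that hairpin outside its target cannot be told apart from loss of SLX4IP. The labels call the replicates biological without saying that they were separate cultures, so the p-values measure the spread between these samples, which may be technical.

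These genes touch a few connected reactions. ABCA1 exports cholesterol and phospholipid to lipid-poor apolipoproteins, and SLC44A1 carries choline, the head group of phosphatidylcholine. DECR1 uses NADPH to prepare unsaturated fatty acids for mitochondrial beta-oxidation, AMACR converts branched-chain acyl-CoAs to the form that peroxisomal and mitochondrial oxidation accepts, and HSDL2 is a peroxisomal dehydrogenase-like protein linked to fatty acids. Thioredoxin (TXN1) reduces protein disulfides with electrons from NADPH, and NADK2 makes NADP inside mitochondria. The paraoxonases PON2 and PON3 are lactonases that limit lipid peroxidation, and PTGR1 inactivates eicosanoids and reduces reactive unsaturated aldehydes and ketones.

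Of the 10 genes, 2 rose in shSLX4IP (Hsdl2 and Nadk2), 4 fell (Amacr, Pon2, Txn1 and Ptgr1) and 4 did not pass the test (Abca1, Slc44a1, Decr1 and Pon3). The test was limma on log2(value + 1), 2-sided, with Benjamini-Hochberg adjustment over the 8127 features and a threshold of 0.05. In the whole table it called 11.7% of features higher and 11.3% lower, 23.0% in either direction. Among 462 features whose gene name can be read, which are called placed here and explained next, it called 17.3% higher and 22.9% lower, 40.3% together. The 6 of 10 called here are to be read against those shares. The 10 were chosen with earlier results of these data known, so the count is no test of them as a group. The lipid genes gave 1 rise and 1 fall among 5, with a median log2 fold change of 0.63, and the redox genes gave 1 rise and 3 falls among 5, with a median of -1.62. The median was -0.23 over placed features and 0.25 over all features. The lipid median is the value of Abca1, which did not pass. Without the library Scram A, described below, the median was 0.09 for lipid genes and -1.12 for redox genes. It was then -0.16 over placed features and 0.10 over all features. For 8 of the 10 genes all values of 1 group lay above those of the other, against 67.1% of placed and 53.5% of all features.

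Gene names in the table can be read only in part, because many genes that every cell uses are listed at 0. Names are used for mitochondrial genes and for 4 chromosome segments in which high values run together. The 10 genes lie in 3 of these: 6 on chromosome 4, 2 on chromosome 6 and 2 on chromosome 15. The libraries held 5433573 to 6693111 recovered reads, and the 10 genes had between 169 and 57174 reads in a library. The targeted gene gives no check of the labels, since Slx4ip is outside the segments and listed at 0 in all 6 libraries. Scram A stood apart from the other libraries. Its summed values were 8.95e+06, against 5.28e+06 to 5.97e+06 elsewhere. It had 8464 features above 0 at 6110599 recovered reads, against 10548 to 11611 features in the other libraries. Its values ran higher in short genes and lower in long ones, so the results are also given without it. The ratio of Scram B to Scram C ran with gene length too, as given below. Cell type markers could be read for few genes. The fibroblast marker Col1a2, the placed gene among 6 such markers, was at 20226 to 25022 in Scram and 239 to 302 in shSLX4IP, and its part in the results below was not tested. The 2 placed of 6 epithelial markers, Grhl2 and Esrp1, summed to 26.2 to 82.0 in Scram and 2.93 to 22.6 in shSLX4IP. Each of the 2 overlapped between the groups. Grhl2 was at 16.8 in Scram B and 20.7 in shSLX4IP C, and Esrp1 at 3.65 in Scram C and 6.34 in shSLX4IP A. The placed adipocyte marker among 4, Lep, did not exceed 8.79 in any library, and no macrophage or endothelial marker was placed. In bulk RNA, fewer cells of a type and less RNA per cell cannot be told apart. Whether the cultures of this line held any fibroblasts was not tested.

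The stretches in front of 4 redox genes are shown because Txn1 and Ptgr1 had the largest falls by level and by fold, while Pon2, which fell, and Pon3, which did not pass, are neighbours on chromosome 6 read from the same strand. Windows of 250 bases before the RefSeq transcript start on GRCm38.p6 were searched. Each line gives the part of a window that lies before the gene as GENCODE M21 draws it, 5′ to 3′ on the minus strand of the genome, from which all 4 genes are read. Capitals mark GGGCGG, the GC box that SP1-family factors bind, or its reverse complement.
Txn1: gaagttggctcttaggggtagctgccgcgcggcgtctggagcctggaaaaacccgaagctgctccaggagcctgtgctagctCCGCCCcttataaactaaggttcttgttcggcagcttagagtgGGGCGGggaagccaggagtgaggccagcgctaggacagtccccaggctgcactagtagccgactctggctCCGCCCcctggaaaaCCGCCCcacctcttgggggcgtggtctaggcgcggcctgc
Ptgr1: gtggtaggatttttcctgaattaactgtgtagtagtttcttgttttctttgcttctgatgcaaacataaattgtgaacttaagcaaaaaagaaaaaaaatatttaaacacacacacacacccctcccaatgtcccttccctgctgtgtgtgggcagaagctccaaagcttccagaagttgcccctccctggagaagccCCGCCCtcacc
Pon2: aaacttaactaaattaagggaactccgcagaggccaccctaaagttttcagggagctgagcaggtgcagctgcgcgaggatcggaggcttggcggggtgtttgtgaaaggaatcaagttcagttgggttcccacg
Pon3: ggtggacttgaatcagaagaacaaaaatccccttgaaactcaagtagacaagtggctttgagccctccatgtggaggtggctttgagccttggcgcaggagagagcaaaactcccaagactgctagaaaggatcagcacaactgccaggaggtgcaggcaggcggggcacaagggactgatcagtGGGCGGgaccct
These lie at chr4:57956412-57956661 (Txn1), chr4:58987120-58987328 (Ptgr1), chr6:5298456-5298590 (Pon2) and chr6:5256287-5256483 (Pon3). The M21 gene begins earlier than the RefSeq transcript for 3 of them, and 41 bases of the Ptgr1 window, 115 of the Pon2 window and 53 of the Pon3 window lie inside it. A promoter window was listed for 7 of the 10 genes and not for Decr1, Amacr and Nadk2. On both strands and without overlap between matches in these 4 windows, GGGCGG occurred 4 times in front of Txn1, 2 times in front of Ptgr1, 3 times in front of Pon2 and 1 time in front of Pon3. All 3 matches of Pon2 and 1 of those of Ptgr1 lie inside the M21 gene and are not among the letters shown. The same letters also occurred 2 times in front of Abca1 and 3 times each in front of Slc44a1 and Hsdl2, where some matches overlap. Each of the 7 genes with a window thus had them, whether it fell, rose or did not pass. They occur in 32.7% of all 32851 windows of this length. Over the full windows, G and C made up 64.0% of that of Txn1, 46.4% of that of Ptgr1, 65.6% of that of Pon2 and 56.8% of that of Pon3. TGACNNNGC, the core of the antioxidant response element read by NRF2, did not occur among the letters of any of the 7 windows and occurs in 10.2% of all windows. CACGTG, an E-box, occurred 1 time, in front of Abca1, and in 6.02% of all windows.

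**Figure D1:**
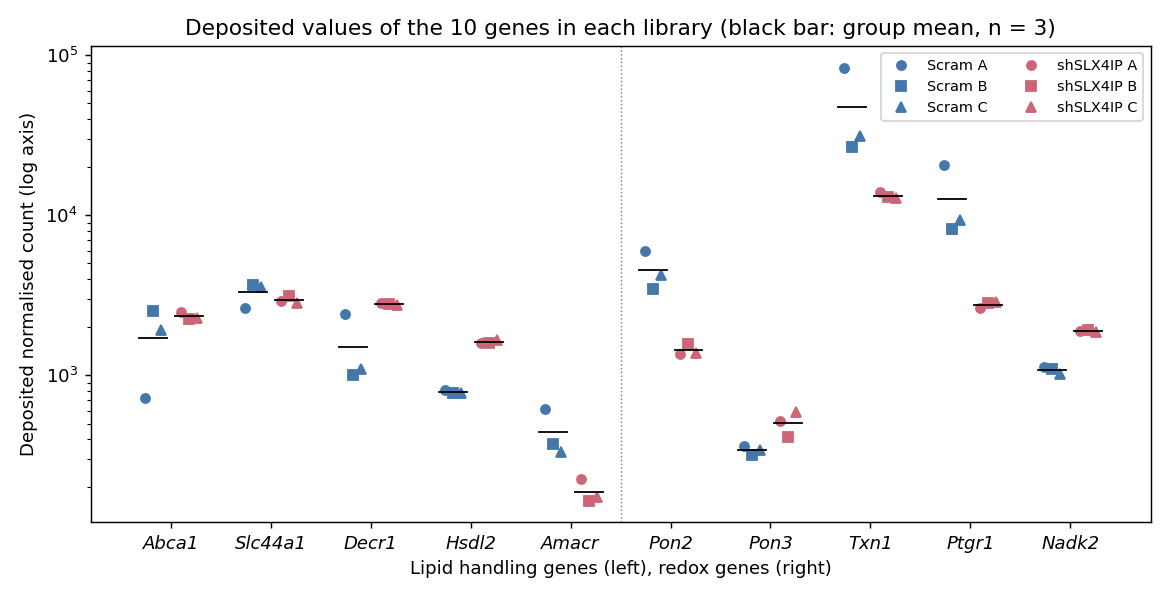
Deposited normalised counts (log axis) of the 5 lipid handling genes on the left and the 5 redox genes on the right, with 1 point per library and a black bar at each group mean (n = 3). The shSLX4IP libraries lie close together for most genes, whereas Scram A sits apart for Abca1, Decr1, Txn1 and Ptgr1.

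Among the lipid genes, Abca1 and Slc44a1, the transporters, did not differ beyond the spread of the libraries. Abca1 (ENSMUSG00000015243.5, chromosome 4, 53030787 to 53159895) had values of 722 in Scram A, 2510 in Scram B and 1931 in Scram C, and of 2481, 2265 and 2288 in the shSLX4IP libraries, given in the same order from here on. Scram B lay above the highest shSLX4IP library and Scram A far below the rest, so the groups overlapped. The log2 fold change of shSLX4IP over Scram was 0.63 (SE 0.47, limma adjusted p = 0.359). Without Scram A it was 0.09 (adjusted p = 0.609). Slc44a1 (ENSMUSG00000028412.18, chromosome 4, 53440413 to 53622478) was at 2640, 3685 and 3561 in Scram and at 2914, 3147 and 2829 in shSLX4IP. Scram A was again the lowest library and the groups overlapped, with a log2 fold change of -0.14 (SE 0.17, adjusted p = 0.557). Without Scram A it was -0.29 and passed (adjusted p = 0.0274), whereas quantile normalization turned it to 0.36 and scaling to library totals to 0.21, neither called. Of its 6945 exonic bases, 310 overlap 1700060J05Rik on the other strand. Within a library, where the size factor cancels, the ratio of Abca1 to Slc44a1 was 0.273, 0.681 and 0.542 in Scram and 0.851, 0.720 and 0.809 in shSLX4IP.

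Hsdl2 rose, with coefficients of variation of 2.48% in Scram and 2.66% in shSLX4IP. Hsdl2 (ENSMUSG00000028383.18, chromosome 4, 59581563 to 59618689) was at 810, 773 and 781 in Scram and at 1582, 1601 and 1664 in shSLX4IP. Every shSLX4IP library was above every Scram library, and Scram A did not stand apart. The means were 788 ± 19.5 and 1616 ± 43.0 (SD, n = 3 each), a log2 fold change of 1.04 (SE 0.13, limma adjusted p = 0.00429). It kept its call in each of 18 other settings.

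Decr1 had higher values in shSLX4IP but did not pass. Decr1 (ENSMUSG00000028223.9, chromosome 4, 15917240 to 15945507) was at 2432, 1007 and 1097 in Scram and at 2844, 2803 and 2744 in shSLX4IP. The shSLX4IP libraries agreed within a coefficient of variation of 1.79%, and Scram A lay nearer to them than to Scram B and C, with a coefficient of variation of 52.8% in Scram. The groups did not overlap, and the log2 fold change was 1.01 (SE 0.36, limma adjusted p = 0.0953). Without Scram A it was 1.41 (adjusted p = 0.000358). It also passed after quantile normalization (1.45, adjusted p = 0.00582), with scaling to library totals (1.35, adjusted p = 0.00713) and with the trend in exonic length removed (1.12, adjusted p = 0.0164). The last fit covers placed nuclear genes alone, in which it passed without the removal too (1.01, limma adjusted p = 0.0484). The ratio of Decr1 to Hsdl2 within a library was 3.00, 1.30 and 1.40 in Scram and 1.80, 1.75 and 1.65 in shSLX4IP, so their ratio in Scram B and C was below that in shSLX4IP and in Scram A above it.

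Amacr was the one lipid gene that fell. Amacr (ENSMUSG00000022244.8, chromosome 15, 10981756 to 10996626) was at 618, 370 and 334 in Scram and at 224, 165 and 174 in shSLX4IP. The groups did not overlap, and Scram A was the highest library. The means were 440 ± 155 and 187 ± 31.8 (SD, n = 3 each), with a log2 fold change of -1.19 (SE 0.30, limma adjusted p = 0.0423). The call rested on few reads, 169 to 422 per library, and was lost in 7 of 18 other settings. Those were no filter on low values (adjusted p = 0.0648), limma without the intensity trend (0.0589), and leaving out any library other than Scram A (0.0620 to 0.144). Without Scram A the fold change was -0.92 and it passed (adjusted p = 0.0139).

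Of the redox genes, thioredoxin was the most abundant and fell about 3-fold. Per kilobase of exon, Txn1 ranked 1 among 431 placed nuclear genes in Scram and 2 in shSLX4IP, at 44934 and 12614 normalised counts per kilobase. Txn1 (ENSMUSG00000028367.6, chromosome 4, 57943373 to 57956411) was at 83723, 26780 and 31173 in Scram and at 13936, 13000 and 12837 in shSLX4IP. Every Scram library was above every shSLX4IP library, and Scram A was 2.89-fold above Scram B and C averaged. The log2 fold change was -1.64 (SE 0.44, limma adjusted p = 0.0477), a 3.11-fold decrease. Without Scram A it was -1.12 (adjusted p = 0.00103). Of 18 other settings, 7 ended the call, including the fits that left out any 1 shSLX4IP library (adjusted p from 0.142 to 0.158), the fit without Scram C (0.0849), and a pseudocount of 0.1 (0.0572). The pseudogene Txn-ps1 matches its transcript at 95.8% identity over 309 bases, so some reads could belong to either.

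Ptgr1, on the same chromosome, had the largest fold change of the 10 genes. Ptgr1 (ENSMUSG00000028378.7, chromosome 4, 58965439 to 58987119) was at 20565, 8185 and 9319 in Scram and at 2638, 2816 and 2857 in shSLX4IP. The lowest Scram library was well above the highest shSLX4IP library, and Scram A was again the highest. The means were 12690 ± 6844 and 2771 ± 117 (SD, n = 3 each), with a log2 fold change of -2.07 (SE 0.36, limma adjusted p = 0.0132), a 4.20-fold decrease. It was -1.66 without Scram A (adjusted p = 0.000392). The call ended when any shSLX4IP library was left out (adjusted p 0.0637 to 0.0647) and was kept in the other 15 settings. Within a library, Txn1 stood to Ptgr1 at 4.07, 3.27 and 3.35 in Scram and at 5.28, 4.62 and 4.49 in shSLX4IP. The ratio was therefore higher in each shSLX4IP library, that is, Ptgr1 was lower against Txn1 there.

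Of the paraoxonases, Pon2 fell and Pon3 did not pass. Pon2 (ENSMUSG00000032667.18, chromosome 6, 5264147 to 5298455) was at 5950, 3454 and 4210 in Scram and at 1355, 1581 and 1384 in shSLX4IP. The groups were well separated, with means of 4538 ± 1280 and 1440 ± 123 (SD, n = 3 each). The log2 fold change was -1.62 (SE 0.23, limma adjusted p = 0.00635), a 3.08-fold decrease, and the call was kept in each of 18 other settings. Pon3 (ENSMUSG00000029759.10, chromosome 6, 5220852 to 5256286) was at 362, 317 and 344 in Scram and at 516, 413 and 586 in shSLX4IP. These groups did not overlap either, but the log2 fold change of 0.55 (SE 0.20) did not pass (limma adjusted p = 0.101). It passed without Scram A (0.60, adjusted p = 0.0472), with DESeq2 (0.57, adjusted p = 0.0136), with scaling to library totals (0.90, adjusted p = 0.0459) and with the length trend removed (0.73, adjusted p = 0.0140). The last fit covers placed nuclear genes alone, in which Pon3 passed without the removal too (0.55, limma adjusted p = 0.0461). Pon1, the serum paraoxonase and the third gene of the cluster, was listed at 0 in all 6 libraries.

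The ratio of Pon2 to Pon3 within a library was 16.4, 10.9 and 12.3 in Scram and 2.62, 3.83 and 2.36 in shSLX4IP. The means were 13.2 ± 2.89 and 2.94 ± 0.781 (SD, n = 3 each), a 4.49-fold difference with no overlap, in which the size factor has no part. In all, 5 such ratios were computed, chosen after the values were seen. The genes of each pair differ in exonic length, so the trend with length within Scram, given below, need not cancel in them. The exact 2-sided permutation test gave p = 0.1, the smallest that 3 samples against 3 allow, for each of Pon2 to Pon3, Txn1 to Ptgr1, Abca1 to Slc44a1 and Ptgr1 to Nadk2 (adjusted over the 5, p = 0.125), and p = 1 for Decr1 to Hsdl2. Part of the Pon2 signal is uncertain. Of its 7339 exonic bases, 680 overlap Gm44424 on the other strand, and a transcript stretch of 911 bases matches Fbxl14 at 93.1% identity. Per kilobase of exon, Pon2 was at 618 in Scram and 196 in shSLX4IP, and Pon3 at 101 and 149, so Pon2 had the higher level of the pair in each group.

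Nadk2, the mitochondrial NAD kinase, rose with little spread. Nadk2 (ENSMUSG00000022253.18, chromosome 15, 9071260 to 9110891) was at 1120, 1091 and 1014 in Scram and at 1900, 1932 and 1877 in shSLX4IP. Every shSLX4IP library exceeded every Scram library, and Scram A, the highest of its group, was close to Scram B. The means were 1075 ± 54.6 and 1903 ± 27.5 (SD, n = 3 each), with a log2 fold change of 0.82 (SE 0.13, limma adjusted p = 0.00836), a 1.77-fold increase that kept its call in each of 18 other settings. Nadk2 is the first gene of its segment. The genes just before it, Ranbp3l and Slc1a3, were listed at 0 in all libraries, and Gm2310 and Nipbl before those had means of 76.4 and 57.3. Skp2 and Lmbrd2, which follow it, had means of 1708 and 2980. The 4 genes before it are named after their values were seen, and whether its name can be read as safely as names inside the segment was not tested. The ratio of Ptgr1 to Nadk2, a gene that fell against a gene that rose, was 18.4, 7.50 and 9.19 in Scram and 1.39, 1.46 and 1.52 in shSLX4IP.

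**Figure D2:**
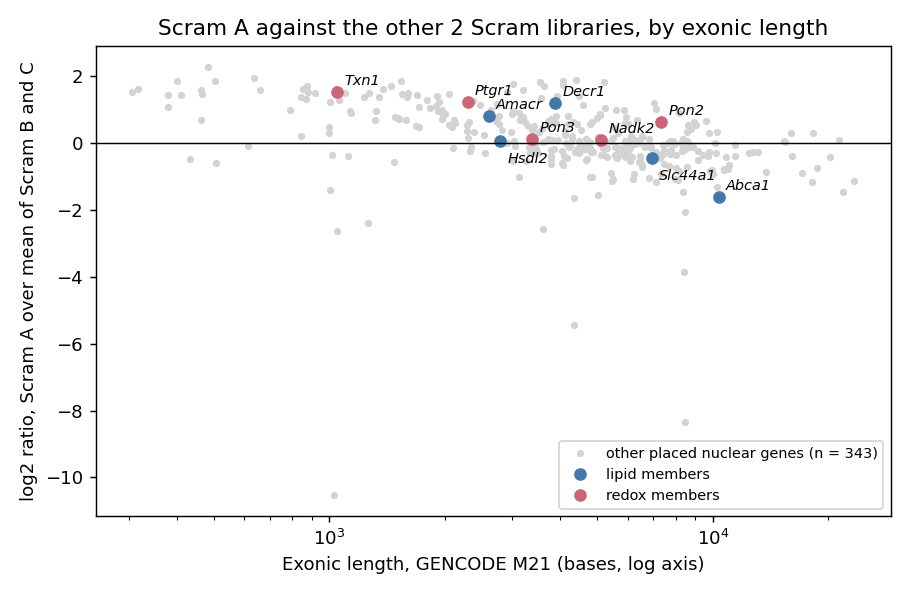
Log2 ratio of Scram A to Scram B and C averaged (vertical axis) against exonic length in bases (log axis) for 353 placed nuclear genes whose mean was 100 or more, the 10 genes in colour. The longest of the 10, Abca1, is the lowest at -1.62 and the shortest, Txn1, the highest at 1.53.

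Among these genes the ratio of Scram A to Scram B and C tended to be higher in shorter genes, with exceptions. The log2 ratio was 1.53 for Txn1 (1051 bases), 1.23 for Ptgr1 (2296 bases) and 0.81 for Amacr (2606 bases), and -0.46 for Slc44a1 (6945 bases) and -1.62 for Abca1 (10363 bases). Decr1 (3879 bases) at 1.21 and Pon2 (7339 bases) at 0.63 were above Nadk2 (5118 bases) at 0.09. Hsdl2 (2795 bases) at 0.06 and Pon3 (3385 bases) at 0.13 showed little excess in Scram A although they are short. Across the 10 genes, which share their libraries, Pearson's r with log2 length was -0.77 (Spearman's rho -0.73), and across the 353 placed genes it was -0.37 (rho -0.55). The log2 ratio of Scram B to Scram C also ran with length, at 0.48 over the 10 genes (rho 0.32) and 0.22 over the 353 (rho 0.52). That ratio was higher in longer genes, so a length trend within Scram remains when Scram A is left out. The log2 fold change between the groups correlated with log2 length at 0.39 over the 10 genes (rho 0.37) and at 0.17 over the 353 (rho 0.28). The libraries of shSLX4IP were closer together. The coefficient of variation was larger in Scram for 8 of the 10 genes, all but Hsdl2 and Pon3, and ranged from 2.48% to 67.1% in Scram and from 1.45% to 17.2% in shSLX4IP. With the length trend removed in the placed nuclear genes, Txn1 was at -1.16 (adjusted p = 0.0125) and Ptgr1 at -1.78 (adjusted p = 0.00102), and their falls were still called. That fit adjusts over 431 placed nuclear genes and not over 8127 features. The same 431 genes without the removal gave -1.64 for Txn1 (limma adjusted p = 0.0222) and -2.07 for Ptgr1 (0.00423).

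**Figure D3:**
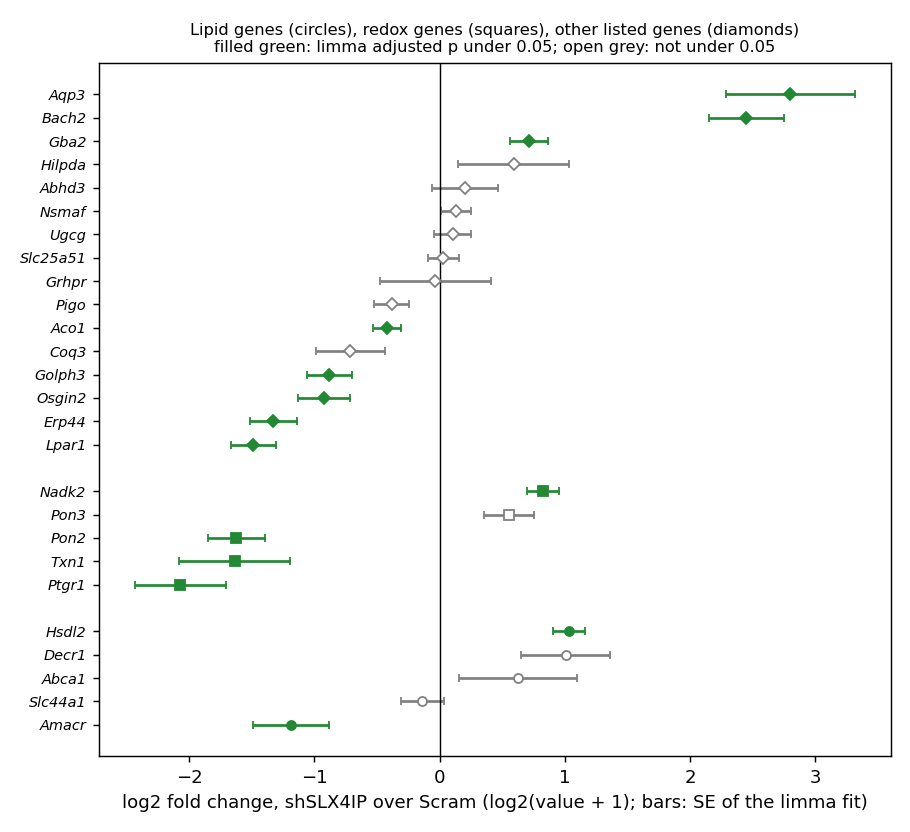
Log2 fold change of shSLX4IP over Scram with the SE of the limma fit (n = 3 libraries per group) for the 5 lipid genes (circles), the 5 redox genes (squares) and 16 other lipid and redox genes (diamonds), filled green where the adjusted p was under 0.05. Ptgr1, Txn1 and Pon2 lie lowest among the 10 genes, and Hsdl2 and Decr1 highest.

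The pathways around these genes could be read through few other genes. Of 136 further genes in 8 lists of lipid and redox metabolism, 26 were placed and 16 of those were tested. Of the 16, 3 rose, 5 fell and 8 did not pass, with a median log2 fold change of -0.0018. The 8 of 16 called stand beside 40.3% of placed and 23.0% of all features, and the lists too were chosen with earlier results known. In sterol and phospholipid transport, Golph3, which binds a Golgi phosphoinositide, fell from 6339 ± 1233 to 3394 ± 135 (log2 fold change -0.88, limma adjusted p = 0.0216). It lost its call in 7 of 18 other settings, with quantile normalization at -0.40 and library totals at -0.54 among them. Lpar1, a receptor for lysophosphatidic acid, fell from 1841 ± 238 to 656 ± 75.8 (log2 fold change -1.49, adjusted p = 0.00386) and kept its call in each of 18 other settings. Gba2, a glucosylceramidase outside the lysosome, rose from 520 ± 21.4 to 856 ± 70.2 (log2 fold change 0.72, adjusted p = 0.0248), a call that ended in 6 of 18 other settings, including each fit that left out Scram C or a shSLX4IP library (0.0611 to 0.0960). Its exons overlap Creb3 and Rgp1 on the other strand, as those of Golph3 overlap 1810049J17Rik. Ugcg, which makes glucosylceramide, stood at 2377 ± 324 in Scram and 2542 ± 70.4 in shSLX4IP without passing (adjusted p = 0.608), and Nsmaf, Abhd3 and Pigo did not pass either (adjusted p = 0.425, 0.573 and 0.107). Pigo passed without Scram A (-0.34, adjusted p = 0.0384), with DESeq2 (-0.39, adjusted p = 0.00429) and in the fit over placed nuclear genes alone (-0.38, adjusted p = 0.0313).

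Beyond Decr1, Hsdl2 and Amacr, none of the 5 placed genes of fatty acid oxidation and bile acid synthesis was tested. Pdk4, Acnat1 and Acnat2 were listed at 0 in every library, and Baat and Cyp7a1 did not reach the filter. Of the lipid storage genes, Aqp3, an aquaporin that also carries glycerol, rose from 10.1 ± 3.96 to 79.0 ± 37.2 (log2 fold change 2.80, limma adjusted p = 0.0156), a low level at which its call was lost without Scram C, shSLX4IP B or shSLX4IP C (0.0545 to 0.0740) and after quantile normalization (0.0661). Hilpda, a lipid droplet protein induced by hypoxia, was at 1024, 353 and 368 in Scram and 773, 759 and 779 in shSLX4IP and did not pass (adjusted p = 0.353). It passed without Scram A (adjusted p = 0.000766). Aqp7 and Lep did not reach the filter.

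Among redox genes outside the 10, Erp44, a thioredoxin-like protein of the early secretory pathway, fell from 5611 ± 1193 to 2211 ± 184 (log2 fold change -1.33, limma adjusted p = 0.00626) and kept its call in each of 18 other settings. Txndc8, a testis thioredoxin, was listed at 0. Bach2, a transcriptional repressor that binds sites shared with NRF2, rose from 150 ± 47.6 to 796 ± 108 (log2 fold change 2.45, adjusted p = 0.00415), kept its call in each of 18 other settings, and overlaps Bach2os on the other strand. Osgin2, an oxidative stress-related gene, fell from 854 ± 161 to 447 ± 56.8 (log2 fold change -0.92, adjusted p = 0.0289), and 7 of 18 other settings ended the call, including each fit that left out Scram C or a shSLX4IP library (0.0635 to 0.103). Aco1, the cytosolic aconitase and iron sensor, was at 4504 ± 137 and 3365 ± 180 (log2 fold change -0.42, adjusted p = 0.0474). Its fall was lost in 12 of 18 other settings and turned to 0.10 after quantile normalization. The mitochondrial NAD carrier gene Slc25a51, the glyoxylate reductase gene Grhpr and the ubiquinone gene Coq3 did not pass (adjusted p = 0.867, 0.959 and 0.118), and Aldh1b1 was listed at 0. Without Scram A, Grhpr went from -0.034 to 0.47 and passed (adjusted p = 0.0229), and Coq3 passed at -0.42 (adjusted p = 0.0177). Coq3 also passed with DESeq2 (adjusted p = 0.0274), and Slc25a51 after quantile normalization (0.54, adjusted p = 0.0326).

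The genes whose values over the 6 libraries ran most like those of Ptgr1 were Sec61b, Rab2a and Brix1, with Pearson's r of 0.9993, 0.9990 and 0.9982 on log2(value + 1) among 430 placed nuclear genes. Each had Scram A as its highest library, as Ptgr1 did. Sec61b was at 21027, 6629 and 8237 in Scram and at 1979, 2053 and 2181 in shSLX4IP. Of the 430 genes, 71 exceeded 0.95.

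**Figure D4:**
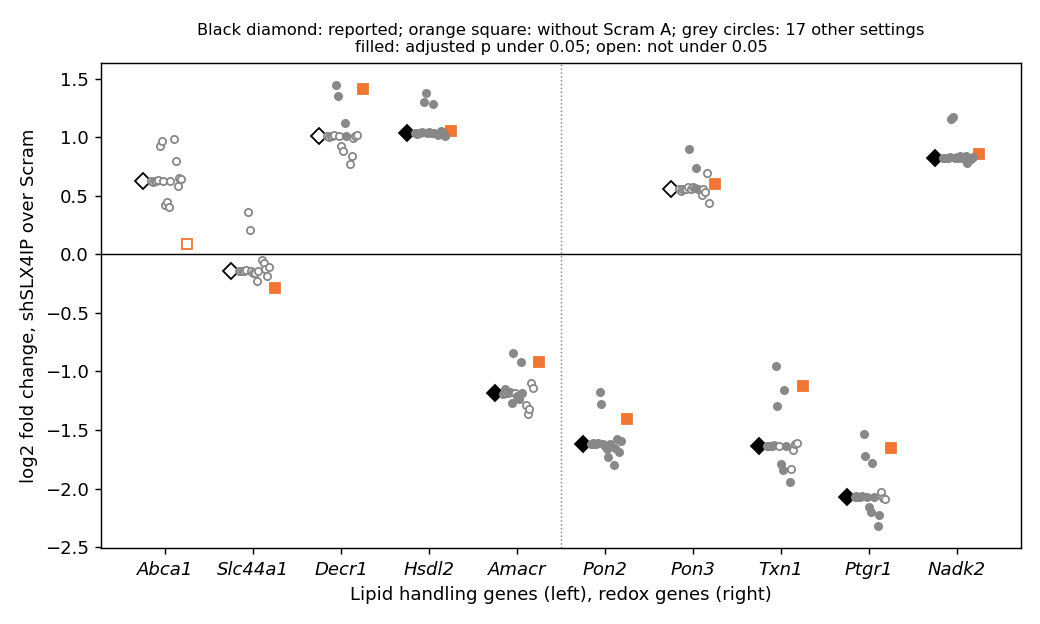
Log2 fold change of each of the 10 genes as reported (black diamonds), without Scram A (orange squares) and in 17 other settings (grey circles), filled where the adjusted p was under 0.05. Hsdl2, Pon2 and Nadk2 are filled throughout, Abca1 is open throughout, and Slc44a1 is the gene whose points lie on both sides of 0.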

How the data were processed

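Poly(A) RNA of 6 samples, 3 per group, was sequenced after 7 days. The submitters' processing notes name DESeq2 1.22.1, StringTie 2.1.7, STAR 2.7.7 and fastp 0.19.5 beside GRCm38 (mm10). What each did, which annotation was used, and any filter or strand setting is not given in the sources used here. Each deposited value is a normalised signal, a read count that the authors divided by 1 size factor per library, per the file name and values. From 99.98% to 100% of values above 0 were within 0.1 of a whole multiple of the library's smallest value, which gave recovered reads. Columns carry letters, which are not tied to replicate numbers. Levels are comparable between genes only per kilobase.

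Of 53647 features, 52094 matched GENCODE M21 (GRCm38), whose coordinates are used. Placed features are mitochondrial genes and genes inside segments where ordered protein-coding genes, scored 3 at a mean of at least 1000 and otherwise -1, summed to at least 30. Features with a mean of at least 10 were tested with limma 3.58.1 under R 4.3.3, fitted to log2(value + 1) with a trend in intensity and no block, and fold changes on this scale understate those of low genes. Tests were checked on simulated counts. Those counts held no trend with exonic length like that of Scram A, so the check does not cover such a trend. The alternatives were other pseudocounts, filters, scalings (TMM, quantile, library totals), limma without the trend, edgeR 4.0.16 and DESeq2 1.42.0 on recovered reads, removal of a loess trend with exonic length, and leaving out each library. Library totals, and a fit over placed nuclear genes alone, were chosen after the data were seen. Similar transcripts were sought with blastn (at least 90% identity over 200 bases), and promoter windows came from RefSeq (GRCm38.p6). The members, the lists and the segment rule were chosen with earlier results of these data known. Genes named by rule are the 10, each placed gene of the lists, placed cell type markers, and the 3 placed genes most correlated with the member of largest called change. The genes next to Nadk2 are named for its position.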

Additional observations from a re-analysis of the deposited data

How the results depend on the processing

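No paired analysis was possible because the table's columns carry letters and no replicate numbers. With 3 libraries per group and a Scram A that differs from Scram B and C, precision is limited most for Abca1, Decr1, Txn1 and Ptgr1. Over 18 other settings, none of the 6 called genes reversed. Under another scaling, placed features had a median of 0.06 (quantile) or 0.11 (library totals) in place of -0.23, and the median of all features went from 0.25 to -0.0028 or 0.58. Slc44a1 reversed with these, at 0.36 and 0.21. Decr1 was called at 1.45 and 1.35 with them, at 1.12 with the length trend removed and at 1.01 in the fit over placed nuclear genes alone. Pon3 was called at 0.90 with library totals, 0.57 with DESeq2, 0.73 with the length trend removed and 0.55 over placed nuclear genes alone. Amacr lost its call at -1.19 without a filter or without the trend, and Txn1 at -1.64 in the same fits and with a pseudocount of 0.1. Some settings test other features or fewer samples, and the cause of a changed call was not tested in any of them.

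Lipid genes called higher were 2 with quantile normalization, library totals, the length trend removed and placed nuclear genes alone, and lipid genes called lower were 0 without a filter or the trend. Redox genes called higher were 2 with library totals, DESeq2, the length trend removed and placed nuclear genes alone. Other listed genes called lower were 3 without a filter and with quantile normalization and 2 with library totals and without the trend. Placed features called higher were 130 with the length trend removed, a fit over 431 placed nuclear genes in which 106 were called higher without the removal, and 165 were called lower with DESeq2. DESeq2 called 1602 of all features higher and 1624 lower, and edgeR 712 and 854, against 952 and 920 with limma.

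Leaving out 1 library at a time, log2 fold changes ranged from 0.09 to 0.99 for Abca1, -0.29 to -0.051 for Slc44a1, 0.78 to 1.41 for Decr1, 1.01 to 1.06 for Hsdl2, -1.36 to -0.92 for Amacr, -1.80 to -1.41 for Pon2, 0.44 to 0.69 for Pon3, -1.95 to -1.12 for Txn1, -2.32 to -1.66 for Ptgr1 and 0.78 to 0.85 for Nadk2. Counts called higher and lower ranged from 1 to 2 and 0 to 2 for lipid genes, 1 to 2 and 1 to 3 for redox genes, and 1 to 5 and 2 to 7 for the other listed genes. They ranged from 40 to 134 and 58 to 167 for placed features and from 433 to 1895 and 410 to 1573 for all features, highest without Scram A.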
